A study of Mus musculus with 41 samples.

Results

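Mouse germline stem (GS) cells that carried an empty vector in place of the transcription factor RHOX10 were followed over the late part of an iSLAM-seq time course, and the 6 libraries labelled 0, 4 and 8 h are described here, 2 at each time. They were chosen by vector and time label alone, out of 24 iSLAM-seq libraries and 41 samples in the series, and the 4 libraries at 4 and 8 h are called late. GS cells are spermatogonial stem cells grown in culture, here from neonatal (P0-P1) testes of the strain C57BL/6. In every group compared, endogenous Rhox10 had been lowered with an shRNA lentivirus and the cells had been sorted for its green reporter. Empty-vector cells received an ERT2-mCherry vector with no Rhox10, and the comparison cells received a Rhox10-ERT2-mCherry fusion that responds to 4-Hydroxytamoxifen. ERT2 is an altered hormone-binding domain of the estrogen receptor that this drug activates. Whether empty-vector cells also received the drug, and from which event the hours are counted, is not given in the sources used here. The empty-vector cells still hold whatever Rhox10 the shRNA left, and the labels call the libraries of a group biological replicates without saying whether they came from separate animals.

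GS cells depend on growth factors of the GDNF and FGF families, which act through receptor tyrosine kinases, RAS and the kinase ERK. ERK signalling switches on immediate-early genes such as Fos, Egr1 and Egr3 within minutes, and their short-lived transcripts fall again as soon as the input fades. Slower targets include inhibitors that feed back on the pathway, such as the DUSP phosphatases and the Sprouty proteins. Stem cell genes such as Bcl6b, Lhx1 and Pou3f1 respond to GDNF, and not all through ERK.

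The 6 libraries held 10006210 to 11171101 counts. Rhox10 itself stood at 0.504 to 1.53 CPM (counts scaled to a common library size) in them and at 34.1 to 46.7 CPM in the Rhox10-ERT2 libraries, so the labels of the vectors matched their contents. Genes with at least 1 count numbered 24274 and 24374 at 0 h and 24937 to 25360 in the late libraries. Replicates of the 3 groups had a chi-square per degree of freedom of 2.62 to 3.97 against sampling noise, so no pair was a library deposited again. The 2 empty-vector libraries at 0.5 h stood apart, at 26.6 against at most 4.57 in the other groups, and replicate 2 read 2548 CPM for the summed fibroblast markers against 3769 CPM in replicate 1. They enter no contrast below but widen the shared estimate of spread, so counts are also given without them.

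Germ cell markers were present in all 6 libraries, and 15 of the 16 on the list reached 1 CPM at 0 h. Their summed level was 2906 and 2934 CPM at 0 h, 3241 and 3293 CPM at 4 h, and 3162 and 3214 CPM at 8 h. Pou5f1, a pluripotency factor, stayed at 1.09 CPM or less in the 6 libraries. All 15 fibroblast or feeder markers were present as well, and their sum went from 3619 and 3692 CPM at 0 h to 3363 and 3366 CPM at 4 h and 3197 and 3301 CPM at 8 h. Of 12 Sertoli cell markers 5 had no count at 0 h, among them Amh and Gata4. Their sum was 363 to 367 CPM at 0 h and 537 to 573 CPM late, but without Sox9 it was 142 to 159 CPM at 0 h and 143 to 163 CPM late. The Leydig cell markers Insl3, Lhcgr and Hsd3b1 had no count in any of the 6 libraries, and neither had the macrophage marker C1qa.

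Late against 0 h, 1489 of 20642 genes tested (7.21%) passed an adjusted p of 0.05 in edgeR's quasi-likelihood test, 853 higher and 636 lower. Of these, 1292 had a mean of at least 5 CPM. A further bar of 2-fold left 359 genes (1.74%), 242 higher and 117 lower, of which 130 and 44 had at least 5 CPM. In 1477 of the 1489 the 2 libraries at 0 h did not overlap the 4 late ones, which held for 33.1% of all genes. The count rose to 3125 without the 0.5 h libraries, 1496 higher and 1629 lower, and 1488 of the 1489 genes remained. It was 521 without the second 0 h library and 609 without the first. Scaled to library totals, without the TMM factors that correct for composition, 743 genes were higher and 828 lower, so the excess of rises depends on the scaling.

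Changes at 4 h were fewer than at 8 h. At 4 h 683 genes passed (3.31%), 447 higher (2.17%) and 236 lower (1.14%), and at 8 h 1345 passed (6.52%), 792 higher (3.84%) and 553 lower (2.68%). Of these, 171 (0.828%) and 383 (1.86%) reached 2-fold. Scaled to library totals the 8 h genes split into 684 higher and 728 lower. Both comparisons use the same 0 h libraries, so their agreement was not scored, and 8 h was compared with 4 h directly. That test called 17 genes (0.0824%), 5 higher (0.0242%) and 12 lower (0.0581%) at 8 h, with 990 at an unadjusted p under 0.05. Of the 17, 5 reached 2-fold (0.0242%). Left without the 0.5 h libraries, the same test called 84, 35 higher and 49 lower. With only the 12 empty-vector libraries it called 3, and with any 1 of the 4 late libraries left out 4 to 6. The 683 calls at 4 h became 215 to 261 when 1 library of that comparison was left out, and the 1345 at 8 h became 552 to 622.

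Most late changes nonetheless ran further in their own direction between 4 and 8 h. Of the 740 late rises of at least 5 CPM, 532 (71.9%) had a higher fitted level at 8 h than at 4 h, against 50.5% of all 11958 genes at that level. Of the 552 late falls, 382 (69.2%) were lower at 8 h, against 49.5% of all genes. Both 8 h libraries lay above both 4 h libraries for 325 of the 740 rises (43.9%, all genes 20.9%), and below them for 218 of the 552 falls (39.5%, all genes 19.9%). The steps were small. The median late rise was 0.47 at 4 h and 0.55 at 8 h on the log2 scale, and the median late fall -0.48 and -0.56. The median difference between 8 h and 4 h was 0.07 for rises and -0.08 for falls, within the median standard errors of 0.121 and 0.146 for single genes.

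**Figure D1:**
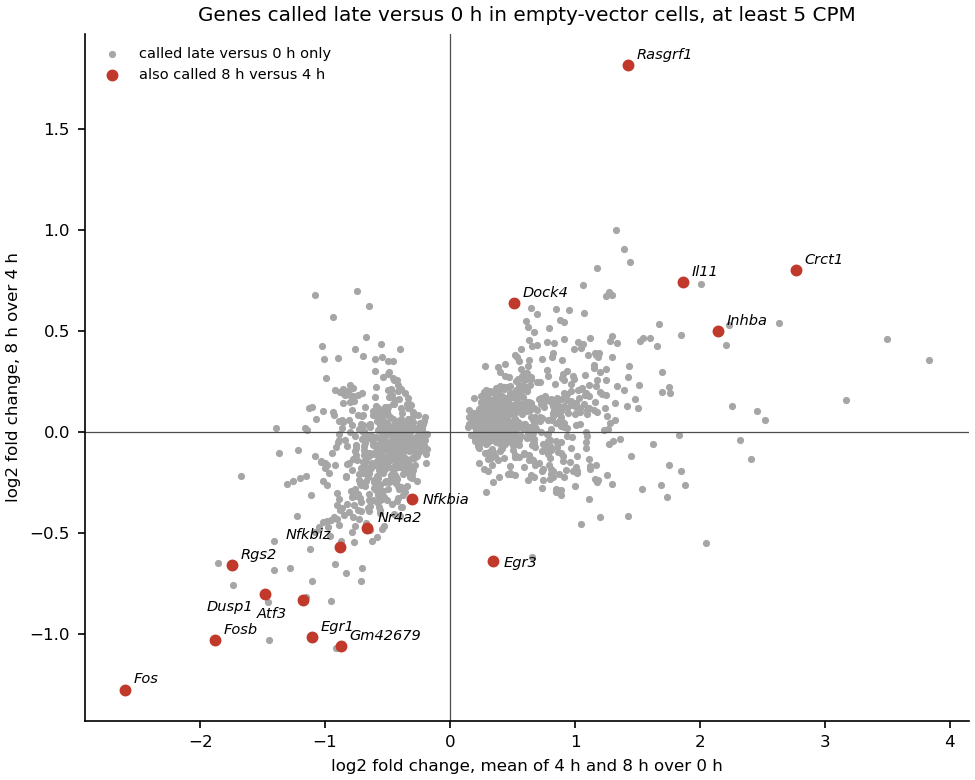
Each point is 1 of the 1292 genes of at least 5 CPM called late against 0 h in empty-vector cells. The horizontal axis is the log2 fold change of the mean of 4 h and 8 h over 0 h, and the vertical axis that of 8 h over 4 h. Red points passed the direct test of 8 h against 4 h. Rises lie mostly above 0 on the vertical axis (532 of 740) and falls mostly below it (382 of 552), and Egr3 is the red point that rose against 0 h and fell from 4 to 8 h.

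Many immediate-early genes fell. Of 32 tested members of the list of EGR, AP-1 and other immediate-early genes, 15 fell and 4 rose late against 0 h, where 3.08% of all genes fell and 4.13% rose. The list's median log2 change was -0.40, and that of all genes was 0.00 to 2 decimals. At 8 h 16 had fallen and 1 had risen, where 2.68% of all genes had fallen and 3.84% had risen. In the direct test 6 were lower at 8 h than at 4 h, against 0.0581% of all genes. With the 0.5 h libraries left out 18 fell and 8 rose late against 0 h, where 1629 and 1496 of all 20510 genes did. The summed fibroblast markers were lower over the same hours, as given above, and their part in the result was not tested.

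Fos, which encodes an AP-1 subunit (GRCm38 chromosome 12, 85473890 to 85477273, plus strand), stood at 190 and 192 CPM at 0 h, 50.1 and 47.8 CPM at 4 h, and 20.7 and 19.7 CPM at 8 h. The 3 times did not overlap. Its late log2 change was -2.60 (SE 0.0842, adjusted p = 1.6e-15), and from 4 to 8 h it dropped by a further 1.28 (SE 0.111, adjusted p = 8.2e-07). Egr1, a zinc finger factor and the best known ERK target, held 620 and 614 CPM at 0 h, 401 and 416 CPM at 4 h, and 204 and 200 CPM at 8 h. Its change was -0.60 at 4 h and -1.61 at 8 h, and the step between them, -1.02, had the smallest adjusted p of the direct test (7.26e-10). Egr1 had not yet fallen at 1 and 2 h, where its 4 libraries read 621 to 703 CPM.

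Fosb, another AP-1 subunit, went from 66.2 and 64.8 CPM at 0 h to 24.7 and 26.2 CPM at 4 h and 11.3 and 13.6 CPM at 8 h. Dusp1, a phosphatase that switches off MAP kinases, went from 168 and 173 CPM to 78.6 and 82.3 CPM and then 47.0 and 45.2 CPM. Rgs2, a brake on G-protein signalling, went from 167 CPM in both libraries to 61.1 and 63.9 CPM and then 43.2 and 36.0 CPM. All 3 genes had their lowest values in the 8 h libraries and passed the direct test of 8 h against 4 h, with log2 steps of -1.03, -0.80 and -0.66. The step of Fosb lost its call without the first 8 h library and that of Dusp1 without any 1 of the late libraries, at -0.76 to -0.84. Of the 11 steps recomputed under every alternative, those of Fos and Egr1 kept their calls in all.

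Other falls among the 12 of smallest p had the same order of times. Jun, the partner of FOS, fell by 0.91 on the log2 scale (SE 0.0808), Ier2 by 1.26 (SE 0.105), the nuclear receptor Nr4a2 by 0.66 (SE 0.0639) and the stress factor Atf3 by 1.18 (SE 0.123). Zfp36, whose protein marks AU-rich transcripts for decay, fell by 1.30 (SE 0.129), and Nfkbiz, a nuclear regulator of NF-kB, by 0.88 (SE 0.0905). Of these 6, Nr4a2, Atf3 and Nfkbiz passed the direct test of 8 h against 4 h, with adjusted p of 0.0074, 0.036 and 0.044. With only the 12 empty-vector libraries fitted, that test called 2 genes lower at 8 h, Fos and Egr1. The steps of Nr4a2, Atf3, Nfkbiz and Rgs2 thus lost their calls there. For Jun, Ier2 and Zfp36 the step was -0.36, -0.24 and -0.26 and did not pass.

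Transcripts for cytokines and for NF-kB regulators fell alongside, 7 of 18 tested on that list with a median log2 change of -0.38, while Relb rose and 10 did not pass. Of all genes 3.08% fell. Cxcl1, a neutrophil chemokine, stood at 220 and 203 CPM at 0 h, 79.6 and 85.3 CPM at 4 h, and 51.4 and 46.0 CPM at 8 h (log2 change -1.74, SE 0.19, adjusted p = 1.97e-06). Its relative Cxcl2 fell from 19.0 and 17.8 CPM to 3.91 to 6.91 CPM over the late libraries. Cxcl5 fell by 0.61, and Nfkbia, the inhibitor that NF-kB itself induces, by 0.30. Stromal cells are a usual source of such chemokines. The sum of the fibroblast markers was lower by 7.96% at 4 h and 11.1% at 8 h, against a 3.34-fold drop of Cxcl1, and their part in that drop was not tested. Of the 15 markers 4 were called lower: Col1a1, Col3a1, Fbn1 and Acta2, with log2 changes of -0.37 to -0.53. In such bulk samples, fewer cells of a type and less RNA per cell cannot be told apart.

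Egr3 did not follow this course. This EGR family factor (GRCm38 chromosome 14, 70077203 to 70082614, plus strand) stood at 126 and 141 CPM at 0 h, 221 and 200 CPM at 4 h, and 129 and 142 CPM at 8 h. The 4 h libraries lay above the others, and those at 8 h overlapped those at 0 h. Its log2 change was 0.66 at 4 h (SE 0.0846, adjusted p = 3.3e-05) and 0.02 at 8 h (SE 0.085, adjusted p = 0.92), and the step from 4 to 8 h was -0.64 (SE 0.0848, adjusted p = 0.00091). The late average of 0.34 passed (adjusted p = 0.0051), but it joins times that differed. That call was lost without the first 0 h library (0.25) and with only the 12 empty-vector libraries fitted, and in the latter fit the step was lost too. The step was -0.56 and not called without the first 4 h library, and -0.57 and not called without the first 8 h library. At 1 and 2 h Egr3 had been at 220 to 251 CPM, above its late average by 0.49 on the log2 scale (adjusted p = 2.5e-05).

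Trib1, a pseudokinase that steers protein degradation, had the same shape. It read 137 and 141 CPM at 0 h, 204 and 189 CPM at 4 h, and 132 CPM in both 8 h libraries. Its step from 4 to 8 h was -0.57 (SE 0.0856, adjusted p = 0.0031), and its late average of 0.21 did not pass (adjusted p = 0.087). Leaving out the first 4 h library or either 8 h library ended the call of the step, at -0.51 to -0.57.

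Dusp6, the cytoplasmic phosphatase that inactivates ERK (GRCm38 chromosome 10, 99263231 to 99267489, plus strand), read 343 and 331 CPM at 0 h, 488 and 472 CPM at 4 h, and 368 and 371 CPM at 8 h. All 4 late libraries lay above both at 0 h, yet the late change of 0.32 (SE 0.197) did not pass (adjusted p = 0.38). Replicate 2 at 0.5 h read 132 CPM for Dusp6 against 374 CPM in replicate 1, and without these 2 libraries the change of 0.30 passed (adjusted p = 2.1e-07). The step from 4 to 8 h was -0.38 (SE 0.225, adjusted p = 1).

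The other feedback inhibitors of ERK split. Of 18 tested, Dusp2, Dusp5, Spry2 and Dusp4 rose and Dusp1 fell, while 13 did not pass. Of all genes 4.13% rose and 3.08% fell. Without the 0.5 h libraries 5 of the 18 rose and 3 fell, where 1496 and 1629 of all 20510 genes did. Dusp2, a nuclear ERK phosphatase, stood at 41.3 and 31.7 CPM at 0 h, 109 and 117 CPM at 4 h, and 86.1 and 83.6 CPM at 8 h (log2 change 1.42, SE 0.14, adjusted p = 4.5e-07). Dusp5, also nuclear, went from 93.7 and 82.6 CPM to 156 and 160 CPM and then 149 and 144 CPM. Both were higher at 4 h than at 8 h, but neither step passed. Among immediate-early genes, the 4 that rose were Egr3, Egr4, Klf10 and Nab2. The last 3 were chosen after their values were seen. Nab2, a corepressor that binds EGR factors, went from 40.8 and 42.5 CPM at 0 h to 74.1 to 85.8 CPM in the late libraries (log2 change 0.95, adjusted p = 4.1e-06). Egr4 rose by 0.29 and Klf10 by 0.73 (adjusted p = 0.0056 and 0.033).

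**Figure D2:**
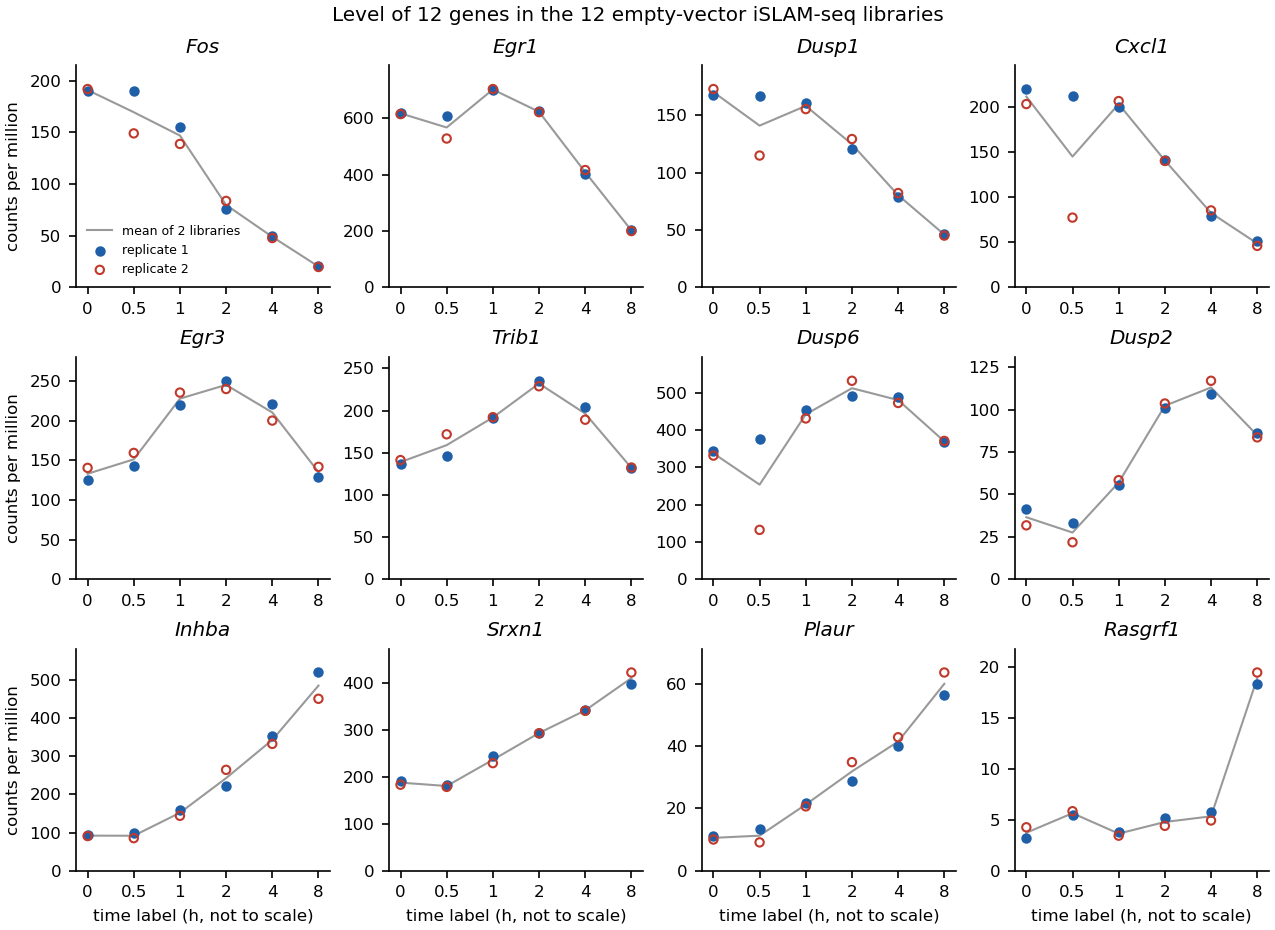
Level in CPM of 12 genes in the 12 empty-vector libraries, by time label in h (positions not to scale), with each replicate as a point and the mean of both as a line. Fos, Egr1, Dusp1 and Cxcl1 are lowest at 8 h, Egr3, Trib1, Dusp6 and Dusp2 peak at 2 or 4 h, Inhba, Srxn1 and Plaur are highest at 8 h, and Rasgrf1 is near 5 CPM until 4 h and at 18.3 and 19.4 CPM at 8 h. Replicate 2 at 0.5 h is far below replicate 1 for Dusp6 and Cxcl1.

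Each of the 12 rises of smallest p had a higher fitted level at 8 h than at 4 h. For Inhba, Il11 and Crct1 that step passed the direct test. Inhba, which encodes the beta A chain of activins and inhibins (GRCm38 chromosome 13, 16011851 to 16031621, plus strand), stood at 93.1 and 90.9 CPM at 0 h, 353 and 332 CPM at 4 h, and 518 and 450 CPM at 8 h. No 2 of these times overlapped. Its late log2 change was 2.15 (SE 0.089, adjusted p = 1.8e-13), a 4.42-fold rise, and the step from 4 to 8 h was 0.50 (adjusted p = 0.026). That step lost its call without the first 8 h library (0.39) and without either 4 h library (0.55 and 0.46). Srxn1, sulfiredoxin, which restores oxidised peroxiredoxins, went from 193 and 184 CPM to 343 and 341 CPM and then 399 and 423 CPM (log2 change 1.00, SE 0.0526). Its step from 4 to 8 h was 0.26 and did not pass.

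Il11, a cytokine of the interleukin-6 family, went from 8.26 and 7.20 CPM at 0 h to 21.5 and 22 CPM at 4 h and 33.5 and 39.3 CPM at 8 h. Its step from 4 to 8 h, 0.74, passed the direct test (adjusted p = 0.008). Plaur, the urokinase receptor, went from 11.1 and 10.04 CPM to 40.1 and 42.8 CPM and then 56.3 and 63.6 CPM. Crct1, a gene of the epidermal differentiation complex, went from 5.42 and 5.78 CPM to 33.1 and 24.8 CPM and then 49.2 and 51.8 CPM. Each of these genes was highest in the 8 h libraries, with no overlap between times. The step of 0.80 passed for Crct1 (adjusted p = 0.038), and that of 0.53 for Plaur did not. The steps of Il11 and Crct1 lost their calls in most fits that left out a late library.

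The other rises of the 12, like those above, had most of their size at 4 h. Ndrg1, a stress and hypoxia marker, stood at 28.1 and 27.4 CPM at 0 h, 88.5 and 87.8 CPM at 4 h, and 102 and 100 CPM at 8 h. Klf7, a Kruppel-like factor, rose by 1.04 at 4 h and 1.15 at 8 h, and Slc20a1, a phosphate importer, by 0.94 and 1.08. Fam84a rose by 2.19 and 2.32, Nfatc2, a calcium-regulated factor, by 1.22 and 1.45, and Ptprn, a protein of secretory granules, by 1.30 and 1.75. Kcnk10, a leak potassium channel, rose from 1.60 and 1.16 CPM to 12.7 to 20.6 CPM in the late libraries, an 11.3-fold change on the fitted scale. For none of these 7 did the step from 4 to 8 h pass, with values of 0.11 to 0.46. The 12 rises and 12 falls of smallest p kept their call under every alternative tried. They had been chosen for a small p in these same libraries, so this is no independent support and does not extend to other calls.

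Rasgrf1 was the late starter. This exchange factor that activates RAS (GRCm38 chromosome 9, 89909908 to 90026977, plus strand) read 3.20 and 4.27 CPM at 0 h, 5.75 and 4.93 CPM at 4 h, and 18.3 and 19.4 CPM at 8 h. Only the 8 h libraries stood apart, and the 4 libraries at 1 and 2 h read 3.44 to 5.16 CPM. The step from 4 to 8 h was 1.82 (SE 0.246, adjusted p = 0.00091), the largest among the 17 genes called between these times, and was 1.71 and not called without the second 4 h library (adjusted p = 0.075). Dock4, an exchange factor for RAC and RAP, likewise read 43.0 and 35.9 CPM at 0 h, 45.8 and 44.3 CPM at 4 h, and 68.6 and 71.8 CPM at 8 h. Its step of 0.64 passed (adjusted p = 0.037) but not with any 1 of the 4 late libraries left out.

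The promoters of the 12 rises and 12 falls of smallest p were searched, and those with a match are shown for the response elements they hold. RefSeq's table for GRCm38.p6 held 9 of the 12 rises and 9 of the 12 falls, each with 250 bases before and 50 after a start site. Searched were the AP-1 site (TGACTCA, or TGAGTCA on the other strand), the cAMP response element (TGACGTCA) and the CArG box of serum response factor, on both strands, and the patterns do not overlap one another. An AP-1 site was found in 3 of the 9 rises and in 0 of the 9 falls. It was found in 1607 of all 27025 genes in the table, and in 5.2% of their 32851 promoters. The cAMP element was found in Dusp1 (549 of all 27025 genes) and the CArG box in Zfp36 (488 of all 27025 genes), both falls. The bases before the start are printed 5′ to 3′ on the gene's strand, with the match in capitals.

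Srxn1, chr2:152105274-152105523, plus strand: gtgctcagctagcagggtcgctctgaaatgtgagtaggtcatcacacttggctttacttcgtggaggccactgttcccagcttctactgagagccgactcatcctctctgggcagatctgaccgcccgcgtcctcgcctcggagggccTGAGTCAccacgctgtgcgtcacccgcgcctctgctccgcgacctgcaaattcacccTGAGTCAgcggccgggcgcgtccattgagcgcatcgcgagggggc
Il11, chr7:4778142-4778391, minus strand: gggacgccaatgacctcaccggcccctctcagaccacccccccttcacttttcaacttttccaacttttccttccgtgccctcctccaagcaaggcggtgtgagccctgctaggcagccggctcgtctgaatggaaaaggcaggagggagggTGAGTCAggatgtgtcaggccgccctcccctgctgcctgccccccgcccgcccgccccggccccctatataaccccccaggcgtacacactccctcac
Plaur, chr7:24462233-24462482, plus strand: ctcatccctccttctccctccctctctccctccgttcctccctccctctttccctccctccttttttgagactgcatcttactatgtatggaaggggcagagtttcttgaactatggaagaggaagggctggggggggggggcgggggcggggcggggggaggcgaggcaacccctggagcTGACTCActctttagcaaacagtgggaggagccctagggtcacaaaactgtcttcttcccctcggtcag
Dusp1, chr17:26508473-26508722, minus strand: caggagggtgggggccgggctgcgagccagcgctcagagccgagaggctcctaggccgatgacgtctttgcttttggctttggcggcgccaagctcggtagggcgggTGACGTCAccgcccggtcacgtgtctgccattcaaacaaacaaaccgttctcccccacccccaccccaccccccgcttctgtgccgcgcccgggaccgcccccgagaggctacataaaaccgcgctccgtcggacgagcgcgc
Zfp36, chr7:28379229-28379478, minus strand: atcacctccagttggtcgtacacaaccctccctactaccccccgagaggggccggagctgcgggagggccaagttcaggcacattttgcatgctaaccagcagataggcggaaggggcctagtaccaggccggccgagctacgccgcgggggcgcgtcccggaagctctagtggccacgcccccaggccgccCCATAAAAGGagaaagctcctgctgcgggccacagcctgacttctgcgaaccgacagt

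The AP-1 sites began 102 and 45 bases before the Srxn1 start, 98 before that of Il11 and 69 before that of Plaur. The cAMP element began 143 bases before the Dusp1 start and the CArG box 58 before that of Zfp36. The genes with an AP-1 site had been picked for their rise, and over the same hours transcripts of the AP-1 subunits Fos, Fosb and Jun fell. AP-1 protein was not measured in these libraries, and a link between the sites and either change was not tested.

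Of 25 tested stem cell genes that respond to GDNF and FGF, 8 rose and 0 fell and 17 did not pass, where 4.13% of all genes rose and 3.08% fell. The list's median log2 change was 0.27. Nefm rose most clearly, from 229 and 230 CPM at 0 h to 317 and 318 CPM at 4 h and 362 and 375 CPM at 8 h (log2 change 0.58, SE 0.0644, adjusted p = 2.7e-06). Eomes, a T-box factor of early stem cells, went from 64.5 and 75.5 CPM to 122 to 133 CPM in the late libraries. Ccnd2, a D-type cyclin, rose by 0.29, and Pou3f1, a POU factor of the GDNF response, by 0.37. Etv5, which GDNF and FGF also induce, read 243 and 266 CPM at 0 h and 205 to 217 CPM late and did not pass (log2 change -0.27, adjusted p = 0.13). Without the 0.5 h libraries 12 rose and 1 fell, where 1496 and 1629 of all 20510 genes did.

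Genes of spermatogonial differentiation and retinoic acid gave 1 rise and 1 fall among 19, where 7.21% of all genes were called. They gave 3 rises and 4 falls without the 0.5 h libraries, where 3125 of all 20510 genes were called. Nanos3, an RNA-binding protein of undifferentiated germ cells, went from 21.8 and 17.4 CPM at 0 h to 41.2 and 37.2 CPM at 4 h and 49.8 and 51.7 CPM at 8 h (log2 change 1.19, SE 0.158, adjusted p = 3e-05). Crabp1, a retinoic acid binding protein, fell from 331 and 328 CPM to 257 to 276 CPM. Kit read 37.1 CPM in both 0 h libraries and 43.6 to 53.6 CPM late, and Stra8 67.5 to 83.1 CPM and 69.9 to 87.6 CPM, and neither passed. Among germ cell markers 2 of 16 rose, Nanos3 and Mael, and 0 fell. Mael lost the call when scaled to library totals.

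Targets of BMP and TGF-beta gave 5 rises and 1 fall among 17, with a median of 0.20, where 4.13% of all genes rose and 3.08% fell. Beside Inhba, Skil, a repressor of SMAD signalling, rose by 0.34 (adjusted p = 0.0012). The ligand gene Tgfb2 and the corepressor gene Tgif1 rose by 0.85 and 0.64. Id3, a direct target of BMP signals, went the other way, from 363 and 378 CPM to 202 and 214 CPM at 4 h and 148 and 146 CPM at 8 h (log2 change -1.08, adjusted p = 0.00014). Sox9, from the Sertoli list, stood at 222 and 208 CPM at 0 h and 381 to 426 CPM late (log2 change 0.89, adjusted p = 2.7e-08), while the other 6 tested Sertoli markers did not pass, nor did 2 Leydig and 8 macrophage or endothelial markers.

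Counts in the stress, metabolic and other lists that follow stand against 4.13% of all genes higher and 3.08% lower. List counts without the 0.5 h libraries stand instead against 1496 higher and 1629 lower of 20510 genes. On the heat shock list 4 of 15 fell and 1 rose, and 6 fell and 1 rose without the 0.5 h libraries. Hsph1 went from 153 and 162 CPM at 0 h to 103 and 101 CPM at 4 h and 79.9 and 88.6 CPM at 8 h, and Dnajb1 fell by 0.53, while Hsp90aa1 rose by 0.24. Hspa1a fell by 0.76, a value that is uncertain because its near copy Hspa1b can share reads with it. Among p53 targets 4 of 27 fell, or 7 with the 0.5 h libraries left out, with Plk2 at -0.58 and Plk3 at -0.81, and Cdkn1a rose by 0.17. In the ATF4 list Ppp1r15a and Slc3a2 fell by 0.82 and 0.31, and Slc7a11 and Atf4 rose by 0.73 and 0.30. None of 18 unfolded-protein genes passed in edgeR's test, with Hspa5 at 1234 and 1295 CPM at 0 h and 1280 to 1335 CPM late. With the 0.5 h libraries left out 3 of the 18 fell.

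Metabolic lists showed scattered single genes. Hypoxia and glycolysis genes gave 4 rises and 1 fall of 24, with the glucose importer Slc2a1 at 56.6 and 57.2 CPM at 0 h and 94.7 to 108 CPM late, and the peptide hormone Adm at 17.3 and 26.6 CPM and then 7.32 to 11.8 CPM. Eno1 rose by 0.89 from about 7 CPM, a value that near copies of the gene can distort. Of 26 cholesterol genes, Cyp51, Hmgcs1 and Insig1 rose by 0.51, 0.28 and 0.34. None of the 14 fatty acid or 9 liver X receptor genes passed in edgeR's test, and without the 0.5 h libraries 1 rose and 1 fell of the 14 and 1 of the 9 fell. Of 10 genes on the list of the estrogen receptor and its targets, the corepressor Nrip1 rose by 0.77 and Igfbp4, which binds insulin-like growth factors, fell by 0.20. NRF2 targets gave 3 rises of 17: Srxn1, Hmox1 by 0.40 and Gclc by 0.28. Without the 0.5 h libraries 4 of the 17 rose and 4 fell, and scaled to library totals 2 rose and 1 fell.

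Of 25 mitotic genes 4 fell and 0 rose, where 3.08% of all genes fell. Without the 0.5 h libraries 8 fell, where 1629 of all 20510 genes did. Among the 4, Plk1, a mitotic kinase, went from 145 and 162 CPM at 0 h to 103 to 123 CPM late (log2 change -0.47, adjusted p = 0.0003). Nusap1, Tpx2 and Aurka fell by 0.43, 0.29 and 0.33. Of 28 replication genes 2 rose and 2 fell, or 3 and 6 without the 0.5 h libraries, among them Ccne1, which drives entry into S phase, at -0.69. Ribosome biogenesis gave 3 rises and 1 fall of 27, at most 0.36 in size. Clock genes gave 3 rises of 17: Nr1d2 by 0.68, Rora by 0.46 and Bhlhe40 by 0.59.

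Transcripts that stay in the nucleus rose in 4 of 11. Malat1 went from 2432 and 2388 CPM at 0 h to 3222 to 3285 CPM late, and Neat1 from 109 and 115 CPM to 186 to 208 CPM. Kcnq1ot1 rose by 0.43, although it lies antisense to Kcnq1 and the strand setting of the counting is not given. Snhg11 fell by 0.52. Splicing regulators of the cyclin L, CLK and SR families gave 4 rises and 0 falls of 23, with Luc7l3 at 0.46. Without the 0.5 h libraries 7 rose and 3 fell, and scaled to library totals 4 rose and 1 fell. Interferon genes gave 4 rises and 2 falls of 34, with Gbp2 at 14.1 and 10.3 CPM at 0 h and 23.3 to 29.0 CPM late. Gbp2 and Gbp3, and Ifit3 and Ifit3b, are close copies whose counts may be split. The 13 mitochondrially encoded genes had no count in any of the 12 empty-vector libraries.

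**Figure D3:**
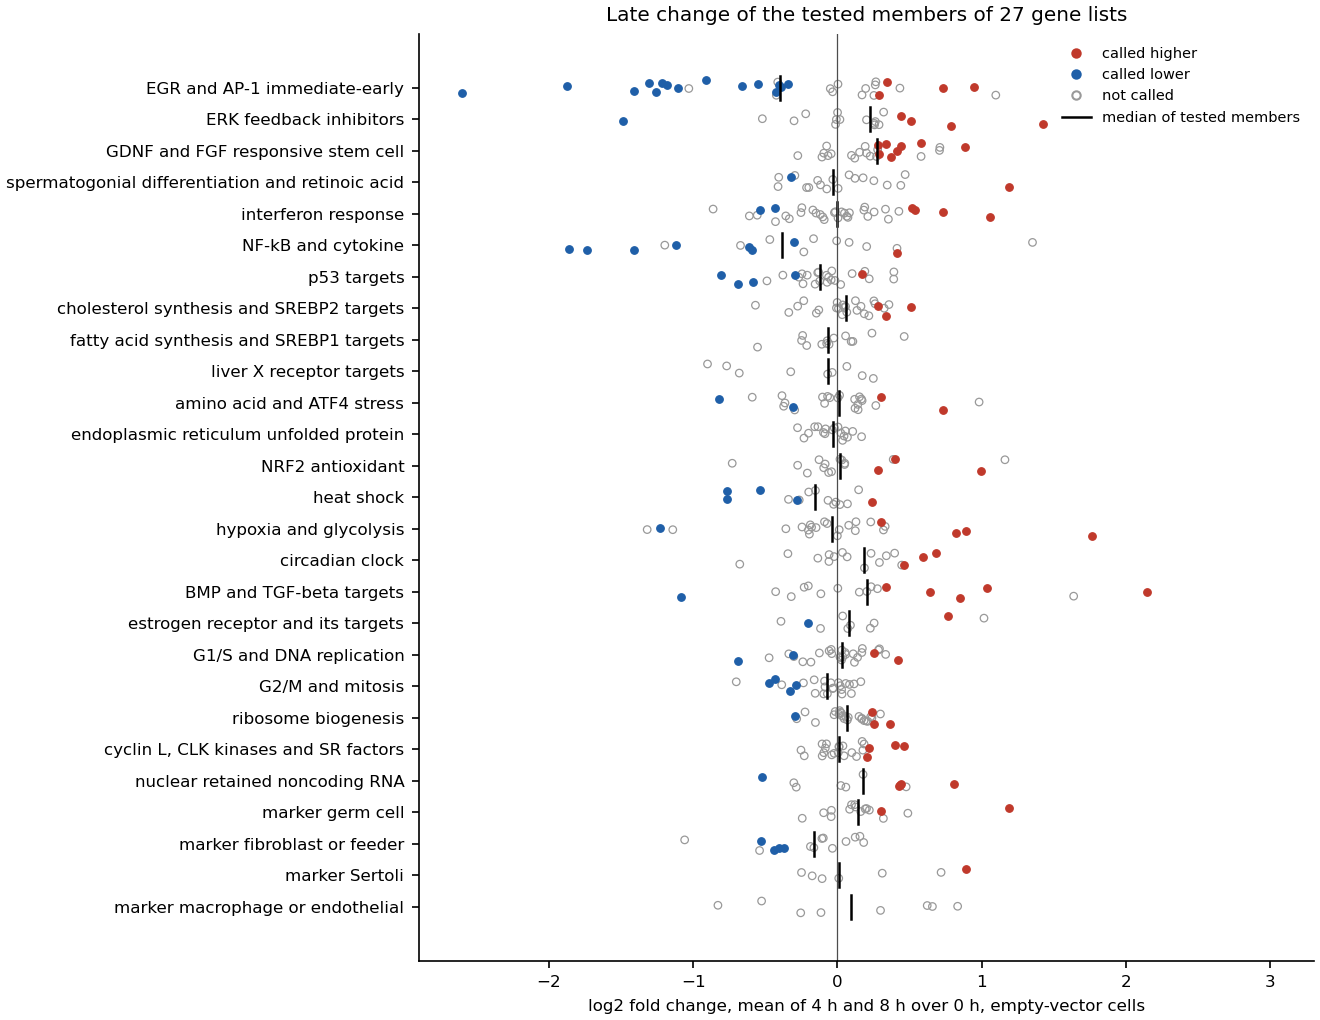
Late log2 fold change over 0 h in empty-vector cells for every tested member of 27 gene lists, 1 row a list. Filled points were called higher (red) or lower (blue), open points were not called, and the black bar is the list's median. The immediate-early list reaches furthest to the left, with 15 members called lower and Fos at -2.60, and the GDNF and FGF list has 8 members called higher and none called lower.

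Late libraries were also compared with those at 1 and 2 h, a comparison that shares the late libraries with the one against 0 h. It called 295 genes (1.43%), 181 higher (0.877%) and 114 lower (0.552%) late. It called 849 without the 0.5 h libraries. Rgs2 was lower late than at 1 and 2 h by 1.15, Fos by 1.78 and Fosb by 1.75, and Inhba was higher by 1.09 and Plaur by 0.94. By contrast, Dusp2 differed by 0.36 (adjusted p = 0.11), Neat1 by -0.14 (adjusted p = 0.49) and Malat1 by 0.05 (adjusted p = 0.70).

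Rhox10-ERT2 cells at the same times share no library with the empty-vector cells and show how much of the late change is common to both vectors. There 1802 genes passed late against 0 h (8.73%), 800 higher (3.88%) and 1002 lower (4.85%), 496 of them by 2-fold (2.4%). Of the 1489 empty-vector genes 550 (36.9%) were also called with Rhox10-ERT2, and these were 30.5% of its calls. Of the 550, 520 had the same sign. Over all 1489 the sign was shared by 84.4%, against 63.1% of all genes tested. The difference between the vectors passed for 336 genes (1.63%), 111 positive (0.538%) and 225 negative (1.09%), 138 of them by 2-fold (0.669%), and 174 were among the 1489. Of the empty-vector rises 108 were lower and 9 higher with Rhox10-ERT2, and of the falls 26 were lower and 31 higher. This difference contains the same empty-vector libraries that chose the 1489, so its direction among them is a description only. Without the 0.5 h libraries the difference passed for 975 genes.

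Among the rises and falls of smallest p, Srxn1 rose by 1.00 and 1.19 and Il11 by 1.86 and 2.11 in empty-vector and Rhox10-ERT2 cells, and neither difference passed (adjusted p = 0.23 and 0.58). Fos fell by 2.60 and 3.96, Egr1 by 1.10 and 2.54, and Fosb by 1.88 and 4.56, and the differences passed with adjusted p of 4.3e-07, 2.8e-11 and 3e-10. Levels at 0 h differed as well. With Rhox10-ERT2 Fosb began at 173 and 164 CPM, against 66.2 and 64.8 CPM with the empty vector. The late values average 4 h and 8 h, which could differ. With Rhox10-ERT2 Il11 read 172 and 161 CPM at 4 h and 69.7 and 70.2 CPM at 8 h. Egr3 and Trib1 differed in course. Egr3 read 90.5 and 95.6 CPM at 0 h, 47.7 and 49.98 CPM at 4 h, and 31.2 and 32.8 CPM at 8 h with Rhox10-ERT2, lower late than at 0 h in all 4 libraries. Its late change differed between the vectors by -1.58 (SE 0.107, adjusted p = 2.2e-09), and that of Trib1 by -1.76 (SE 0.106, adjusted p = 3e-10). For Dusp2, up by 1.42 with the empty vector and at -0.57 with Rhox10-ERT2, the difference of -1.99 passed (adjusted p = 7.1e-07). For Dusp6 the difference was -0.46 (SE 0.276) and did not pass (adjusted p = 0.55).

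**Figure D4:**
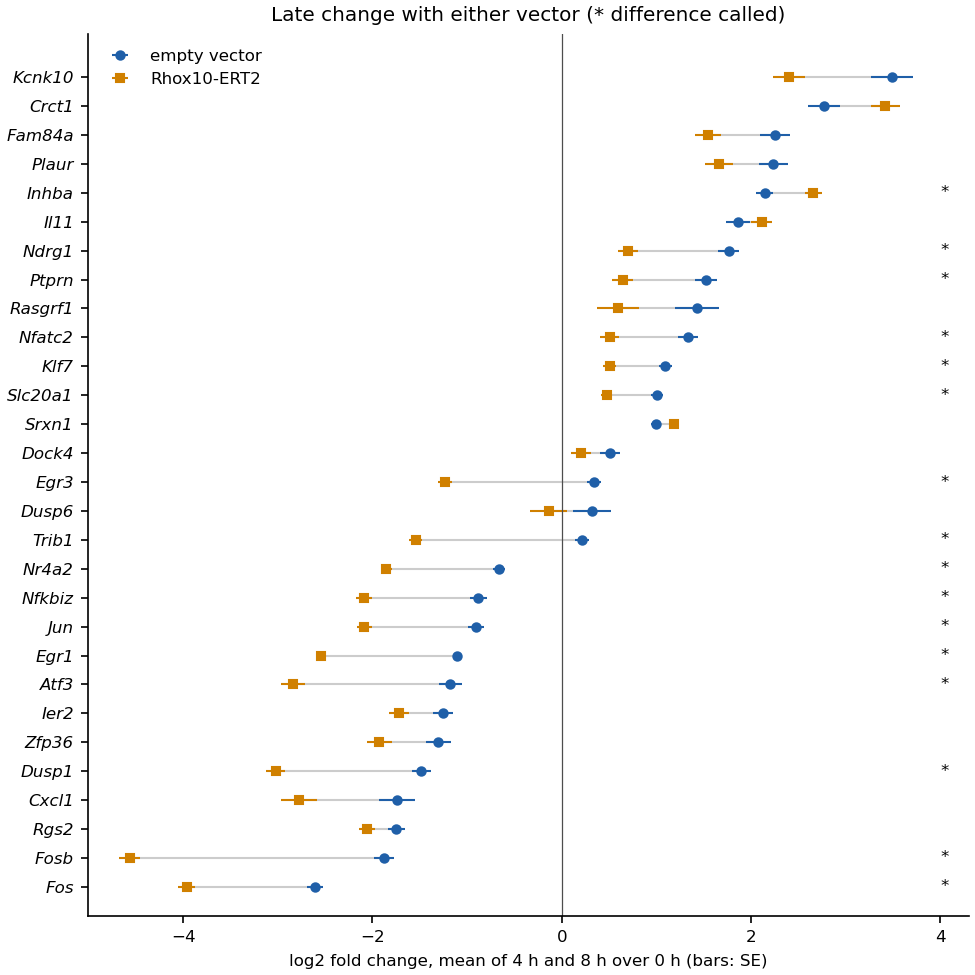
Late log2 fold change over 0 h with standard errors for the 29 genes named for their late change, for 8 h against 4 h, or given as markers, in empty-vector cells (circles) and Rhox10-ERT2 cells (squares). Stars mark genes whose difference between vectors passed an adjusted p of 0.05. The 12 falls of smallest p lie further below 0 with Rhox10-ERT2, and Egr3 and Trib1 lie on opposite sides of 0.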

How the data were processed

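RNA was measured as 3' end Quant-seq libraries of iSLAM-seq samples. The authors deposited counts, which are whole numbers per gene, and per the submitters' processing notes the build was mm10 and limma 3.42.2 was among the tools. The aligner, the counter, its strand setting, and whether all or only converted reads were counted are not given in the sources used here. All 55536 gene identifiers matched GENCODE M21.

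Counts were tested with edgeR 4.0.16 (R 4.3.3) by quasi-likelihood with TMM factors, its default filter on low counts, 12 group means over 24 libraries and Benjamini-Hochberg adjustment, with calls at an adjusted p of 0.05. Late is the mean of 4 h and 8 h. CPM uses the TMM-scaled library sizes. The test was run on simulated counts first. Alternatives were DESeq2 1.42.0, other scalings, filters and sets of libraries, a replicate block, and leaving out each library. Counts of list calls under other fits were chosen after seeing the data.

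Members and the 29 lists (551 genes) were chosen with earlier results of these data known. Named genes were Egr3 and Dusp6, then the 12 rises and 12 falls of smallest p among called protein-coding genes with at least 5 CPM, no overlap and an absolute log2 change of at least 0.5. Up to 6 genes each way for 8 h against 4 h and up to 4 called genes a list were added, and a list with no call was described by its first tested genes. A result of 1 gene is not reported here. Other genes named beside them were chosen after their values were seen. The p-values measure the spread between these libraries, which may be technical.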

Additional observations from a re-analysis of the deposited data

Results flagged for a closer look

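Values in this section are differences on the log2 scale that passed an adjusted p of 0.05 in edgeR's quasi-likelihood test of the difference itself. Between 8 h and 4 h in empty-vector cells, the change over 0 h was smaller or more negative at 8 h. The difference was -1.28 for Fos, -1.02 for Egr1, -1.03 for Fosb, -0.64 for Egr3, -0.48 for Nr4a2 and -0.83 for Atf3 among immediate-early genes. It was -0.80 for Dusp1, -0.66 for Rgs2, -0.57 for Trib1, -0.57 for Nfkbiz and -0.33 for Nfkbia among other regulators of signalling. The change was larger at 8 h by 1.82 for Rasgrf1, 0.80 for Crct1, 0.74 for Il11, 0.64 for Dock4 and 0.50 for Inhba.

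The late change with Rhox10-ERT2 was also set against that with the empty vector, as the first minus the second. Genes of the early response fell further or lost their rise. These are differences between changes, and some of the genes began higher at 0 h with Rhox10-ERT2. Nr4a2 read 302 and 311 CPM there at 0 h, against 121 and 131 CPM with the empty vector. At 8 h it read 65.3 and 67.1 CPM, against 65.5 and 69.3 CPM. Egr1 did end lower, at 108 CPM in both 8 h libraries against 204 and 200 CPM. Among transcription factors of that response the difference was -2.69 for Fosb, -1.66 for Atf3, -1.58 for Egr3, -1.44 for Egr1, -1.36 for Fos, -1.19 for Nr4a2 and -1.18 for Jun. Among inhibitors of signalling it was -1.99 for Dusp2, -1.76 for Trib1, -1.54 for Dusp1, -0.86 for Dusp5 and -0.66 for Spry2. For genes of NF-kB and cytokines it was -1.41 for Cxcl5, -1.21 for Nfkbiz and -0.48 for Nfkbia.

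Among the other rises of empty-vector cells the difference was -1.06 for Ndrg1, -0.88 for Ptprn, -0.82 for Nfatc2, -0.59 for Klf7 and -0.54 for Slc20a1. Inhba alone in that set had a positive difference, 0.51. These values average 4 h and 8 h, which differed for some of the genes with Rhox10-ERT2. There Inhba read 138 and 148 CPM at 0 h, 1584 and 1407 CPM at 4 h, and 554 and 537 CPM at 8 h. Ndrg1 read 46.36 and 59.15 CPM, then 142 and 144 CPM, then 50.91 and 51.75 CPM. Ptprn differed less, at 70.37 and 63.95 CPM at 4 h and 63.25 and 57.65 CPM at 8 h. In stress, clock and hormone lists the difference was -2.36 for Bhlhe40, -1.62 for Adm, -1.04 for Slc7a11, -1.01 for Hmox1, -0.71 for Nrip1, -0.70 for Plk2, -0.63 for Nr1d2, -0.59 for Gclc, -0.59 for Rora and -0.46 for Atf4. For targets of TGF-beta, Sox9 and nuclear transcripts it was -0.39 for Skil, -0.70 for Sox9, -0.92 for Neat1 and -0.31 for Malat1. The difference was positive for the interferon genes, 2.20 for Ifit3 and 1.97 for Rsad2. With the empty vector Ifit3 stood at -0.43 and with Rhox10-ERT2 at 1.76. It was also positive for 3 genes that fell with the empty vector, 0.49 for Plk1, 0.36 for Nop2 and 0.30 for Igfbp4.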

How the results depend on the processing

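Of the counts of called genes under the alternatives, 45 stayed within 1.5 times and 38 did not. Fitted with only the 12 empty-vector libraries, 760 genes were called late against 0 h, 233 at 4 h, 522 at 8 h, 3 at 8 h against 4 h and 110 late against 1 and 2 h. Without the 2 libraries at 0.5 h these became 3125, 1791, 2806, 84 and 849, with 3224 late calls for Rhox10-ERT2 and 975 for the vector difference. With only the 6 libraries at 0, 4 and 8 h they were 3007, 1817, 2778 and 79. Calls that also reach 2-fold numbered 359, 171, 383, 5 and 49, then 496 for Rhox10-ERT2 and 138 for the vector difference. Without a filter on low counts 33 genes differed between 8 h and 4 h. Leaving out 1 library gave 521 to 1103 late calls, 215 to 261 at 4 h, 552 to 622 at 8 h, and 4 to 6 at 8 h against 4 h. These fits pool the spread over groups, so the lone library of a group is assumed to vary like the others.

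With the replicate number as a block, 1537 genes were called late, 688 at 4 h, 1339 at 8 h, 17 at 8 h against 4 h, 299 late against 1 and 2 h, 1820 with Rhox10-ERT2 and 355 for the vector difference. Deviations of same-numbered libraries correlated at 0.00403, -0.00248 and -0.00755, so no shared deviation was seen. This cannot show whether same-numbered libraries came from the same animal or culture.

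Of 97 named genes called late, 53 kept the call under every alternative, and 144 of 1455 combinations of gene and alternative lost it. Only genes that were not called reversed. Star was 0.0044 under the replicate block and ran from -0.1752 to 0.173 with 1 library left out, passing through 0.0305. Herpud1 ran from -0.1663 to 0.1158, with 0.0506 and 0.0178 between, Cyp11a1 from -2.2876 to 1.6182, and Csf1r from -1.3816 to 0.1496. The cause was not tested.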

Other observations

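A further 7 genes were nearly absent at 0 h, with at most 3 counts in each library, and had at least 10 counts in each of the 4 late libraries. They were chosen by these same counts after the values were seen, so no test is given for them, and 4 are protein-coding. Genes with the opposite pattern are not given here. Ppp1r1a, an inhibitor of protein phosphatase 1, had 2 and 0 counts at 0 h, against 20 and 16 counts in the 4 h pair and 15 and 17 counts in the 8 h pair. Lgi4, a secreted protein of glial cells, had 0 and 2 counts, then 11 and 18, then 15 and 36. Ppp1r1a was already at 15 and 18 counts at 1 h, and it had 25 and 19 counts at 0 h with Rhox10-ERT2.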
